A study of Mus musculus with 3 samples.

Results

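In a single-cell RNA data set from mouse ear epidermis, 121 droplets held the RNA of T cells and of Langerhans cells (LCs) under 1 barcode. They were chosen by their counts alone. A droplet needed at least 500 detected genes, at most 10% mitochondrial counts, at least 5 unique molecular identifiers (UMIs, each 1 captured RNA molecule) summed over the T cell genes Cd3e, Cd3g, Cd3d, Trdc, Trac and Trbc2, and at least 2% of its UMIs from the MHC class II genes Cd74, H2-Aa, H2-Ab1 and H2-Eb1. These droplets are called pairs here, and the sums are called the T sum and the MHC share. Of the pairs, 107 of 8158 passing droplets (1.31%, exact binomial 95% interval 1.08 to 1.58%) came from the croton oil library and 14 of 6855 (0.204%, 0.112 to 0.342%) from the microneedle library. The untreated library, used as background, held 2 such droplets of 9827 (0.0204%). All intervals cover counting error only.

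The libraries came from magnetically enriched LCs of male mice labelled Cd1, an outbred stock. The 3 groups were mice given the depilatory Nair alone (untreated), mice given croton oil, an irritant plant oil, with acetone and olive oil, and mice punched repeatedly with microneedles. Cells of the treated mice were taken 48 hours after the initial treatment, the epidermis was freed by trypsin digestion, and dead cells were removed before the enrichment. Each group had 1 library, and the number of mice in it is not given in the sources used here, so every difference between libraries is a description with no test.

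LCs are dendritic cells that live among the keratinocytes of the epidermis. They hold peptides on MHC class II molecules and carry them to lymph nodes after leaving the skin by way of the chemokine receptor Ccr7. The mouse epidermis also holds dendritic epidermal T cells, a gamma-delta T cell population that settles there before birth and carries a nearly invariant receptor built from Trgv5 and Trdv4. When 2 cells share a droplet, their RNA is read as a sum, whether they were joined in the tissue, stuck together after dissociation or were loaded together. These sources cannot be told apart from counts.

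The 3 libraries held 6945 to 9876 barcodes and 117178809 to 127666928 UMIs. They shared 13 to 32 barcodes with each other. The barcode of 1 croton oil pair also occurred in the untreated library and that of another in the microneedle library, but no barcode was a pair in more than 1 library.

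Most pairs lay far from the limit on the T sum, but many were near that on the MHC share. In the croton oil library the T sum of the pairs ran from 5 to 221 UMIs with a median of 55, and 98 of the 107 had 20 or more. Just inside the limit, 2 droplets had a T sum of 5 and 1 a T sum of 6. Just outside it, among droplets with an MHC share of at least 2%, 1 had a T sum of 4, 1 a sum of 3, 5 a sum of 2 and 125 a sum of 1, against 6505 at 0. The MHC share of the pairs ran from 2.00 to 6.29% with a median of 3.24%, and 19 pairs lay between 2 and 2.5% and 23 between 2.5 and 3%. Only 8 croton oil droplets with a T sum of 5 or more had an MHC share between 1 and 2%, of which 4 had a T sum under 10 and 3 carried keratin RNA. The microneedle pairs had T sums of 5 to 103 UMIs (median 55) and MHC shares of 2.35 to 5.29%. Of all droplets with a T sum of 5 or more, the pairs were 107 of 254 in the croton oil library (42.1%, 36.0 to 48.5%) and 14 of 32 in the microneedle library (43.8%, 26.4 to 62.3%), against 2 of 13 in the untreated one (15.4%, 1.92 to 45.4%).

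**Figure D1:**
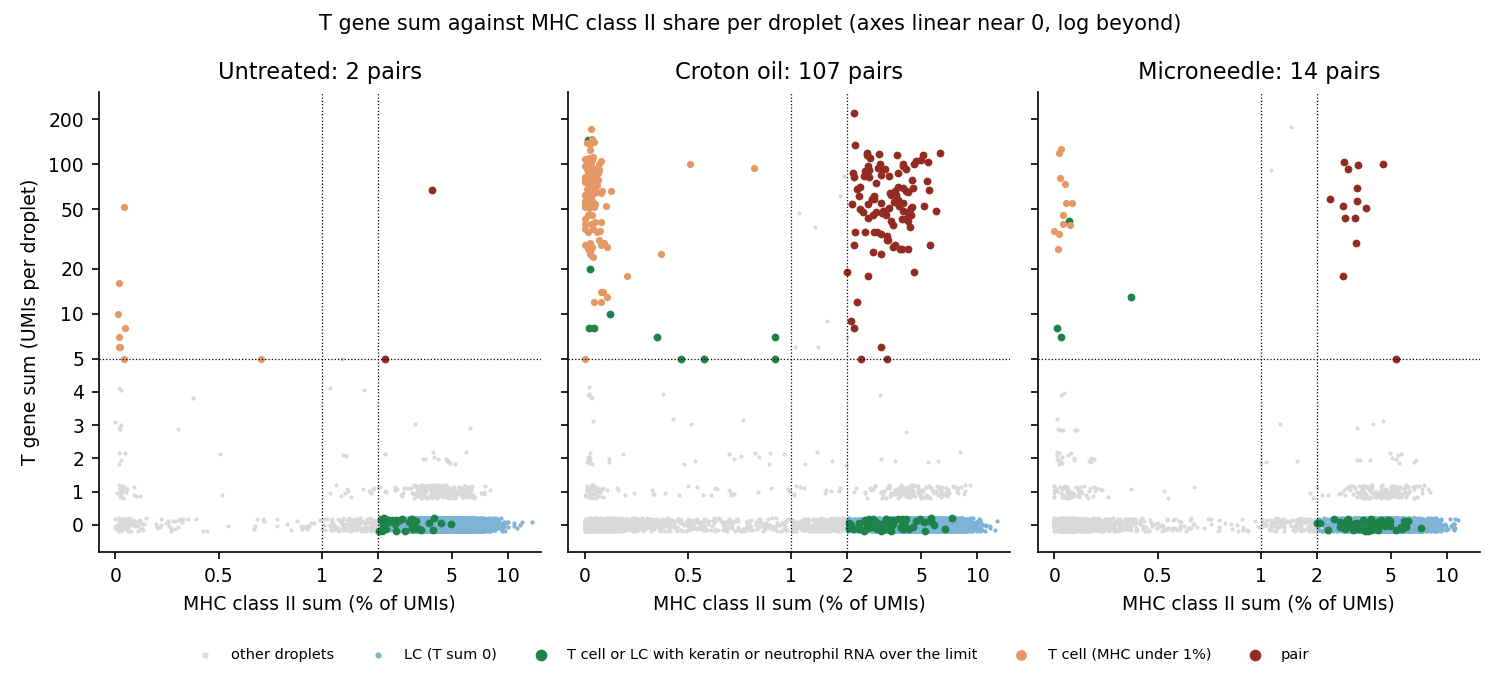
T sum in UMIs per droplet (vertical axis) against MHC share in percent of UMIs (horizontal axis) for every passing droplet of the 3 libraries. Axes are linear near 0 and logarithmic beyond, and dotted lines mark the limits at a T sum of 5 and MHC shares of 1 and 2%. Of the 107 croton oil pairs 98 have a T sum of 20 or more, above the 132 droplets with sums of 1 to 4, of which 125 have a sum of 1, and 8 droplets lie between the MHC limits.

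Markers that the rule did not use gave both names. Of 6 other T cell markers (Cd2, Lck, Skap1, Bcl11b, Thy1 and Cd247) and 6 LC markers (Cd207, Mfge8, Epcam, Ctss, Cst3 and Csf1r), 102 of the 107 croton oil pairs had at least 3 of each list. The same held for 13 of the 14 microneedle pairs. None of 6441 croton oil LCs and 6 of 127 croton oil T cells did so (both classes as restricted below). The other 5 croton oil pairs had T sums of 5 to 19. Over all 9 croton oil pairs with T sums in that range, median depth was 6596 UMIs, against 22401 in the 98 with more. Of the 2 untreated droplets, 1 had a T sum of 67 and 3 markers of each list, and the other had a T sum of 5.

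The comparison cells were droplets with the same T sum and an MHC share under 1% (T cells), and droplets with a T sum of 0 and an MHC share of at least 2% (LCs). In the croton oil library these were 139 T cells and 6505 LCs. The T cell class was not pure: 11 of its 139 droplets took 0.1% or more of their UMIs from the basal keratinocyte genes Krt5, Krt14 and Krt15, and 3 took 0.5% or more from the neutrophil genes S100a8, S100a9, Retnlg, Csf3r and Cxcr2. Together these were 12 droplets with a median of 85001 UMIs and a median T sum of 8, and they held 51.3% of all UMIs of the class. None of the 107 pairs reached either limit. Leaving such droplets out left 127 T cells and 6441 LCs. These limits were set after the data had been seen, so results are given with both sets of comparison cells where they differ. The untreated library had 9 droplets in the T cell class, but only 1 of them had 3 of the T cell markers, and it was not used for comparison.

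With the restricted comparison cells, the pairs were about as deep as a T cell and an LC together. In the croton oil library the median was 6200 UMIs in T cells, 12540 in LCs and 22217 in pairs, against 18740 for the sum of the first medians. On means, 7215 and 13716 UMIs added up to 20931, and the pairs had 23194, a ratio of 1.11. The ratio was 1.11 in the microneedle library as well, where the medians were 7829, 17397 and 31373. The mean T sum was 61.5 UMIs in croton oil pairs and 67.3 in T cells, a ratio of 0.914. The mean number of MHC UMIs was 788 in pairs and 696 in LCs, a ratio of 1.13, which the minimum MHC share could raise. Of the 107 pairs, 98 were deeper than the median LC. With the rule's comparison cells the ratio of means was 0.849 in the croton oil and 0.695 in the microneedle library, since the very deep droplets raise the T cell mean, while the ratio of medians was 1.16 in both.

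**Figure D2:**
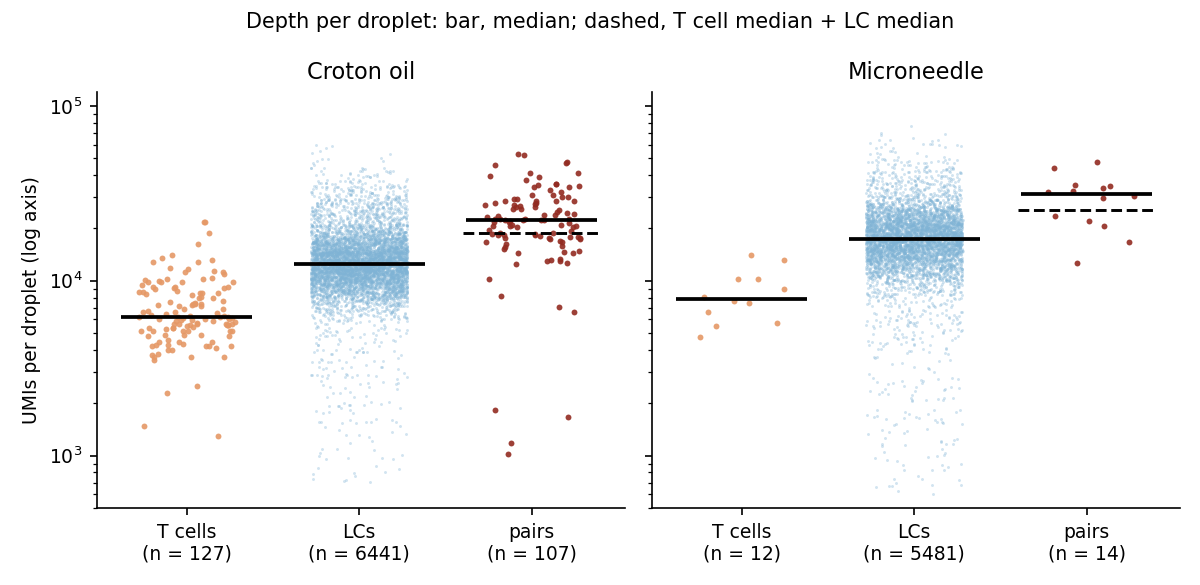
UMIs per droplet (log axis) of T cells, LCs and pairs in the croton oil and microneedle libraries, without T cells and LCs over the keratin or neutrophil limit. Points are droplets, bars are medians, and the dashed bar over the pairs is the T cell median plus the LC median, at 18740 UMIs against a pair median of 22217 in the croton oil library.

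The T cells in the pairs carried gamma-delta receptor RNA, as did the T cells alone. Trdc, the constant region of the delta chain (chr14:54380308-54386325, GRCm39, plus strand), gave 1998 UMIs in the croton oil pairs and was found in 105 of 107. Trac, the constant region of the alpha chain, gave 11 UMIs in 8 pairs. Trdc thus made up 99.5% (99.0 to 99.7%) of the UMIs of both chains in pairs and 98.8% (98.3 to 99.2%) in the 127 T cells, where it gave 2692 UMIs against 32 for Trac. Both are genes of the rule, but their ratio was free to vary. Of the pairs, 94 had at least 2 Trdc UMIs and no Trac UMI, and none had 2 Trac UMIs without Trdc. In microneedle pairs Trdc gave 295 and Trac 5 UMIs.

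The variable regions of dendritic epidermal T cells, which the rule did not use, were found in both classes. Trdv4 was found in 88 of 107 pairs (82.2%) and in 112 of 127 T cells (88.2%), against 2 of 6441 LCs (0.0311%). With the T sum thinned at random to 20 UMIs, its share was 60.2% (49.8 to 70.0%) in pairs and 62.5% (53.2 to 71.2%) in T cells. Trgv5 was found in 20 pairs and 23 T cells, whereas Trgv6, used by gamma-delta cells of the dermis and uterus, gave 1 UMI in each class. Trgc1, a gamma constant region, reached 255 CPM (counts per 1000000 UMIs) in pairs, 882 in T cells and 0.0679 in LCs. Of the alpha-beta genes, the beta chain constant region Trbc2 was found more than Trac. It made up 4.33% of the T sum in pairs and 3.56% in the 127 T cells, against 0.167 and 0.374% for Trac. The alpha-beta coreceptors were scarce: Cd8a gave 0 UMIs in pairs and 3 in T cells. Cd4 gave 26 UMIs in pairs and 0 in T cells, but its level in pairs, 10.5 CPM (6.84 to 15.4), was close to the 9.76 CPM of LCs.

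With the restricted comparison cells, most T cell state genes compared stood near the level that a sum predicts. Tnfsf11 and Klrc1, given below, stood further from it. That level was taken from a mixture of the summed T cell and LC profiles. The T cell share of RNA was set so that genes outside the rule at 20 CPM or more in pairs, T cells or LCs fitted best. The fit itself thus draws the differences of these genes towards 0. With the restricted comparison cells the T cell share was 31.4%. Differences are log2 of pair over sum with 5 CPM added to each, which understates low genes, and a difference of 1 is 2-fold. The T cell gene list not used by the rule (24 genes) had 16 genes compared, a median of 0.07 and a range of -0.26 to 0.35, beside a median of 0.01 over all genes compared. The cytotoxic list had 5 of 11 genes compared, with a median of 0.12 (-0.20 to 1.43). With the rule's comparison cells these medians were 0.99 and 1.16 (0.82 to 2.26), and 1 cytotoxic gene counted as above. The 4 receptor chain genes compared had a median of -0.12 with the restricted and 0.95 with the rule's cells. Nkg7, a granule protein of cytotoxic cells, had 498 CPM in pairs, 1767 in T cells and 0.147 in LCs (-0.16). Klrd1, a subunit of NK receptors, had 166, 581 and 12.2 CPM (-0.20). Prf1, the pore protein perforin, had 134, 392 and 0.521 CPM (0.12). After thinning, Nkg7 was found in 93.9% of pairs and 93.3% of T cells, and Prf1 in 61.2% and 51.7% (54.3 and 54.1% over all draws), with overlapping intervals. The T cell activation list had 9 of 17 genes compared, with a median of 0.05 (-0.76 to 0.28). With the rule's comparison cells its median was 0.19 (-1.03 to 0.66), and 1 gene was 2-fold below.

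The median of the genes of residence in the epidermis moved from below to above the sum with the comparison cells. None of these genes was 2-fold away with either set. Values are again from the restricted set. Itgae, the integrin chain that binds E-cadherin, had 164 CPM in pairs and 407 in T cells (0.10). Cxcr6, a receptor of resident T cells, had 53.6 and 216 CPM (-0.32), and Jaml, a costimulatory receptor of epidermal gamma-delta T cells, 37.5 and 130 CPM (-0.22). The resident list had 5 of 8 genes compared with a median of -0.22 (-0.32 to 0.10), and all 5 were above the sum with the rule's comparison cells (median 0.58, 0.21 to 0.92). Tcf7, a transcription factor of long-lived T cells, stood at 0.13 and Il12rb2, a chain of the receptor for interleukin 12, at 0.18. With the rule's comparison cells Il12rb2 was at 1.22. The list of naive and circulating T cell genes, with 4 of 7 compared, then reached 1.12 with 1 gene 2-fold above, against at most 0.13 with the restricted cells. Of the effector cytokines, Il17a gave 0 UMIs in both classes, and Ifng gave 0 in pairs and 3 in T cells. Il13, a type 2 cytokine, was found in 22 pairs and 32 T cells (14.1 and 52.4 CPM, -0.17). Foxp3, the regulatory T cell factor, gave 2 UMIs in pairs and 1 in T cells. Xcl1, a chemokine for Xcr1 on dendritic cells, was found in 20 of 107 pairs (18.7%) and 42 of 127 T cells (33.1%). Thinned, its share was 9.18% (4.29 to 16.7%) and 15.8% (9.81 to 23.6%), which overlap.

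**Figure D3:**
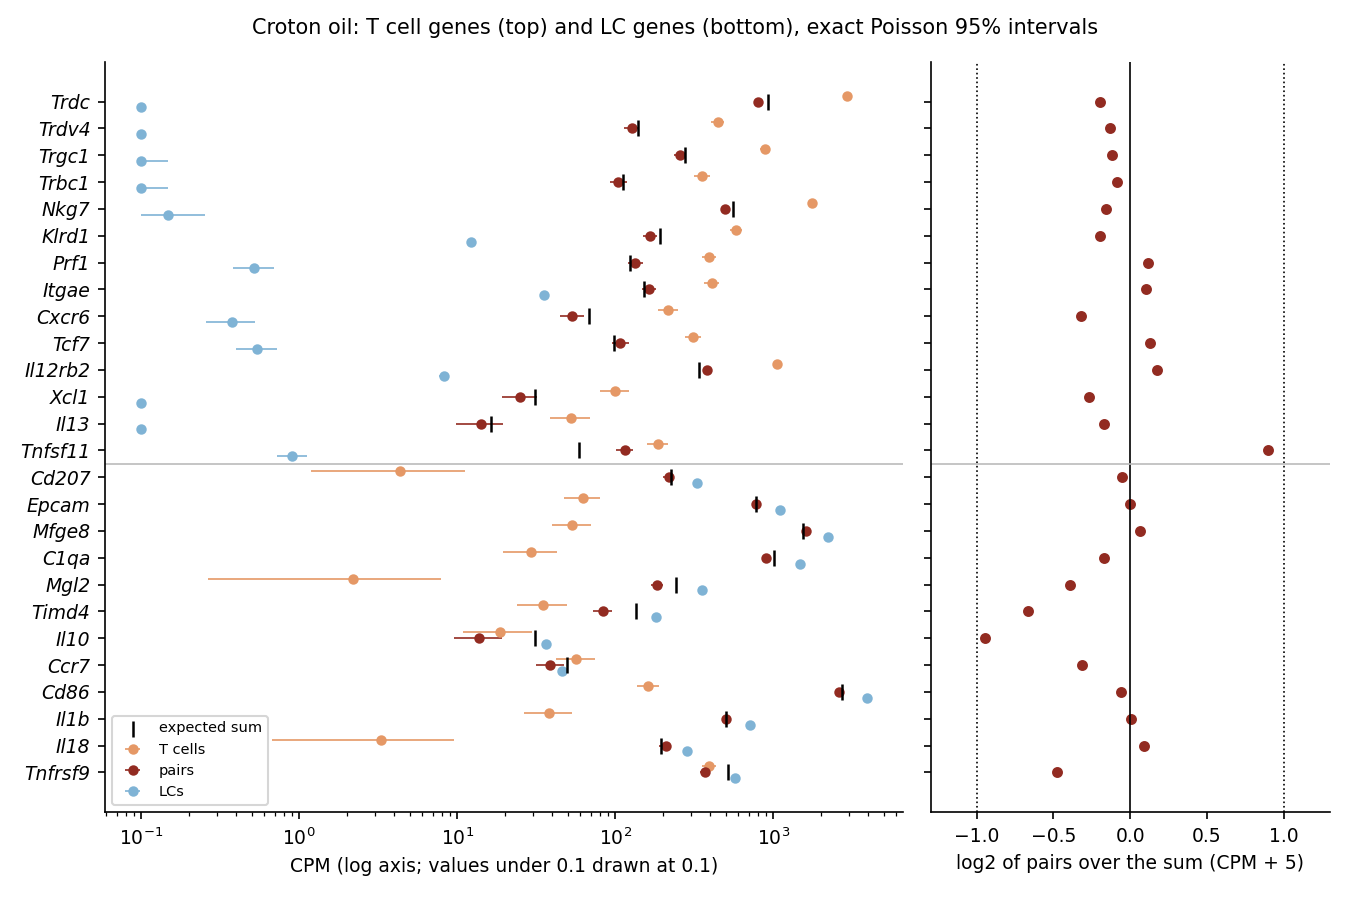
Levels of T cell genes (above the grey line) and LC genes (below it) in the croton oil library, in CPM on a log axis, with exact Poisson 95% intervals for T cells, LCs and pairs; black ticks mark the expected sum. The right panel gives log2 of pairs over the sum, where dotted lines mark 2-fold, and every gene drawn lies inside them, from Il10 at -0.94 to Tnfsf11 at 0.90.

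The LC identity genes in the pairs also stood near the sum. Cd207, the lectin langerin that names LCs, had 217 CPM in pairs, 328 in LCs and 4.37 in T cells (-0.06). It was found in 82 of 107 pairs and 4 of 127 T cells. Epcam, an adhesion protein of LCs, stood at -0.00 and Mfge8, a bridging protein for dying cells, at 0.06. The costimulatory ligand Cd86 had 2617 CPM in pairs and 3896 in LCs (-0.06), and Cd80 stood at -0.04. The inflammatory cytokine genes Il1b and Il18 were at 0.00 and 0.09. Of the LC identity list, 17 of 18 genes were compared, with a range of -0.22 to 0.07.

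Lists of LC states lay on either side of the sum, with no gene 2-fold away within the limits on droplets. The resting LC list had 8 of 9 genes compared, a median of 0.22 and a range of -0.06 to 0.50, highest for Hpgd, an enzyme that breaks down prostaglandins. The inflammatory list had 6 of 9 compared, a median of -0.08 and a range of -0.48 to 0.72, highest for Ptgs2, an enzyme that makes them, with 28.6 CPM in pairs. The complement gene C1qa stood at -0.17 and all 5 genes of its list were below 0, with a median of -0.17. Mgl2, a sugar-binding receptor, had 184 CPM in pairs against a sum of 243 (-0.39). Tnfrsf9, the costimulatory receptor CD137, had 369 against 515 CPM (-0.48). Timd4, a receptor for phosphatidylserine (chr11:46701620-46735177), had 83.0 CPM in pairs (72.1 to 95.1), 180 in LCs and 34.9 in T cells, against a sum of 134 (-0.66). Il10, an anti-inflammatory cytokine (chr1:130947581-130952711), had 13.7 CPM (9.49 to 19.1), 36.7 in LCs and 18.6 in T cells, against a sum of 31.0 (-0.94). At 100 MHC UMIs per droplet, Timd4 was found in 20.4% (13.1 to 29.5%) of pairs and 23.9% of LCs. Il10 was found in 2.91% (0.605 to 8.28%) and 5.65% (5.10 to 6.25%), and the intervals overlapped for both genes. Over all draws, the mean share of Il10 was 4.03% of pairs and 5.66% of LCs. Timd4 and Tnfrsf9 were singled out after their values had been seen.

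Genes of LCs leaving the skin were found in a minority of the pairs. They were read from Ccr7 and Fscn1, an actin-bundling protein of mature dendritic cells, after each droplet was thinned to 100 MHC UMIs. At least 2 such UMIs remained in 7 of 103 pairs (6.80%, 2.78 to 13.5%) and in 211 of 6427 LCs (3.28%, 2.86 to 3.75%), with overlapping intervals. The rule's T cells also carried them, in 2 of 137 droplets (1.46%) at 1982 UMIs, and the restricted T cells in 4 of 125 (3.20%) at 1978 UMIs. With at least 1 such UMI the shares were 10.7% (5.45 to 18.3%) of pairs, 5.07% (4.55 to 5.64%) of LCs and 5.84% (2.55 to 11.2%) of the rule's T cells (8.80% of the restricted ones, 4.48 to 15.2%). In the microneedle library at least 1 UMI was found in 2 of 14 pairs (14.3%, 1.78 to 42.8%), 48 of 5437 LCs (0.883%, 0.652 to 1.17%) and 0 of 16 T cells (0 to 20.6%). The intervals of pairs and LCs did not overlap at that count, which rests on 2 pairs. Unthinned, 3 of the 16 T cells (18.8%) held such UMIs, and 0 of the 12 restricted ones did. At least 2 UMIs were found in 1 of the 14 thinned pairs (7.14%, 0.181 to 33.9%) and 22 of the 5437 thinned LCs (0.405%, 0.254 to 0.612%), with overlapping intervals. Over all draws the mean share of microneedle pairs was 8.75% with at least 1 UMI and 7.05% with at least 2, about 1 pair of 14 in each case. A thinned pair still holds T cell RNA. Unthinned, 9 of 107 croton oil pairs (8.41%), 358 of 6505 LCs (5.50%) and 11 of the rule's 139 T cells (7.91%) had at least 2. Of the 127 restricted T cells 5 did (3.94%). Most of the RNA was in few droplets: 7 pairs with at least 10 such UMIs held 87.9% of them. The single draw moved these shares: over all possible draws the mean share with at least 2 UMIs was 4.44% of pairs and 3.46% of LCs, and 3.51% of the pairs with a T sum of 10 or more. Ccr7 stood at -0.31 and Fscn1 at 0.05 against the sum. The migratory chemokine Ccl17 was at 1.39, but 1 droplet held 67.0% of its UMIs in pairs.

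Genes through which LCs and T cells signal to each other were mostly near the sum with the restricted comparison cells. Of the costimulatory ligand list, 6 of 14 genes were compared, with a median of 0.14 and none at 2-fold; Cd274, the inhibitory ligand PD-L1, was highest at 0.50 with 28.9% of its UMIs in 1 droplet. Of the matching T cell receptors, 3 of 13 were compared, with a median of -0.01. In the chemokine list, Cxcl16, the ligand of Cxcr6, had 482 CPM in pairs and 780 in LCs (-0.18). The chemokine list, with 5 of 17 genes compared, had a median of -0.18, which became 0.71 with the rule's comparison cells. Of the cytokine list, 11 of 22 genes were compared, between -0.02 and 0.25. With the rule's comparison cells the range was -0.09 to 1.22 and 2 receptor chains, Il12rb2 (1.22) and Il2rb (1.17), were 2-fold above. Among adhesion genes, Cdh1 (E-cadherin) stood at 0.22, Icam1 at -0.30 and Crtam, an adhesion receptor of T cells, was lowest at -0.56. Nr4a1, Nr4a2 and Nr4a3, early response genes downstream of antigen receptors, stood at 0.07, 0.19 and 0.06, and both cell types alone already had high levels of Nr4a3 (835 and 1039 CPM).

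Which genes went beyond a sum depended on the comparison cells and on how the sum was made. With the 139 T cells and 6505 LCs as chosen by the rule, the T cell share of RNA was 28.8%, and of 7135 genes compared 89 (1.25%) were at least 2-fold above the sum and 144 (2.02%) at least 2-fold below. These values also moved with other settings: the T cell share was 63.1% from the T cell list and 49.5% from depth, and the genes above became 1 when mean UMIs per droplet were added, 3 at a T sum of 10 or more and 8 with the mean of droplets. A gene counted as above also needed UMIs in at least 10 pairs and no pair with over 20% of its UMIs. The genes furthest above were T cell genes: Tnfsf11 (1.91), Trpm6 (1.71), Kcnt2 (1.57), Klrc1 (1.54), Arnt2 (1.54), Plpp3 (1.53), Heg1 (1.45), Adamtsl3 (1.43), Atp10a (1.42), Skap1 (1.42), Klf12 (1.41) and Agbl4 (1.38). The T cell list had a median of 0.99, with 8 of 16 genes above. The genes furthest below were the keratins Krt14 (-6.17), Krt5 (-5.95), Krt6a (-5.30) and Krt6b (-4.48), the neutrophil genes S100a8 (-4.80) and S100a9 (-4.74), Gpr15lg (-4.75) and the reporter sequence mCherry (-4.62), which no label mentions. Keratins and neutrophil genes were thus higher in the comparison cells than in the pairs. Genes of cell division were also below the sum with these comparison cells: of 12 listed, 9 were compared and 7 were 2-fold below, with a median of -1.56. With the restricted comparison cells 2 were compared, Mki67 (-0.10) and Stmn1 (0.40). At 100 MHC UMIs, 32.0% (23.2 to 42.0%) of pairs and 15.4% (14.6 to 16.3%) of the restricted LCs held a UMI of the list, and 16.0% (10.1 to 23.6%) of T cells did at 1978 UMIs. Over all draws the mean was 25.8% of pairs and 15.7% of LCs. A thinned pair holds the RNA of both cells, so its share is not that of its LC.

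Without the comparison cells that held keratin or neutrophil RNA, the pairs were close to a plain sum. Of 7004 genes compared, 1 (0.0143%) was above and 1 (0.0143%) below by 2-fold, 97.9% lay within 0.5 of the sum on the log2 scale and 82.5% within 0.25, and the median size of the difference was 0.12. The gene above was Adamtsl3 (chr7:81984645-82263658), a secreted matrix protein, with 22.6 CPM in pairs (17.0 to 29.3), 27.3 in T cells (17.7 to 40.3) and 0.0340 in LCs (1.02). It passed by a small margin, from 56 UMIs in 26 pairs against 25 UMIs in the T cells. It was no longer called, and no other gene was, with the T cell share taken from the T cell list, the LC list or depth or at a minimum of 50 CPM, and 7 genes were above with the mean of droplets. The gene below was Gm56663 (chr19:11370203-11370687), with 10.1 CPM in pairs, 6.55 in T cells and 42.2 in LCs (-1.26). Krt14 and Krt5 stood at -0.45 and -0.33 and S100a8 at -0.48, but these genes define the restriction, so their move towards the sum is set by it. Within the limits on droplets, no gene was 2-fold above both cell types with either set of comparison cells (without those limits, 12 genes with the restricted and 1 with the rule's set; with the mean of droplets and the limits, 3 and 2; with 1 CPM added, 0 and 1), and 5 (0.0701%) were 2-fold below both with the rule's set, against 0 with the restricted one.

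Tnfsf11 (chr14:78514885-78545490), the T cell cytokine RANKL, led the genes above the sum with the rule's comparison cells and fell short of 2-fold with the restricted ones. It had 114 CPM in pairs (102 to 129), 187 in T cells (160 to 217) and 0.906 in LCs, against a sum of 59.2 (0.90). It was found in 48 of 107 pairs (44.9%) and 44 of 127 T cells (34.6%), and 1 pair held 19.0% of its UMIs. Thinned, the shares were 33.7% (24.4 to 43.9%) and 21.7% (14.7 to 30.1%), which overlap. Klrc1, an inhibitory NK receptor chain, stood at 0.81 and its thinned shares were 17.3% (10.4 to 26.3%) and 6.67% (2.92 to 12.7%), which overlap too (17.6 and 9.16% over all draws). Trpm6, a magnesium channel, stood at 0.66. In the microneedle library Tnfsf11 had 55.2 CPM in pairs (35.0 to 82.9) and 215 in T cells (135 to 326). The sum there was 41.8 CPM, a difference of 0.36, but it rests on 12 T cells and its T cell share is not given here. No excess is therefore read from it. Only 3 of the 14 pairs held Tnfsf11, against 6 of the 12 T cells, and 1 of these pairs had 52.2% of its UMIs in pairs. Over all draws, its mean thinned share there was lower in pairs (21.3%) than in T cells (29.0%). The same held for Klrc1 (20.4 and 25.8%), so the order of both genes was the reverse of that in the croton oil library.

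Before the limits on droplets were applied, 17 genes exceeded the sum by 2-fold with the restricted comparison cells. All but Adamtsl3 had 47.9% or more of their UMIs in 1 pair. The keratins of the outer epidermis were among them: Krt1 (3.58), Krt10 (3.50) and Krt2 (4.23) had 97.1, 96.1 and 99.3% of their UMIs in 1 droplet. That droplet had 41533 UMIs, a T sum of 48 and 1109 UMIs of these 3 keratins, 97.3% of those in all pairs. The granzymes Gzmc and Gzmb, proteases of killer cells, were at 1.43 and 1.25, with 49.1 and 84.4% of their UMIs in 1 droplet. Gzmc was found in 14 pairs and 17 T cells and Gzmb in 11 and 7.

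**Figure D4:**
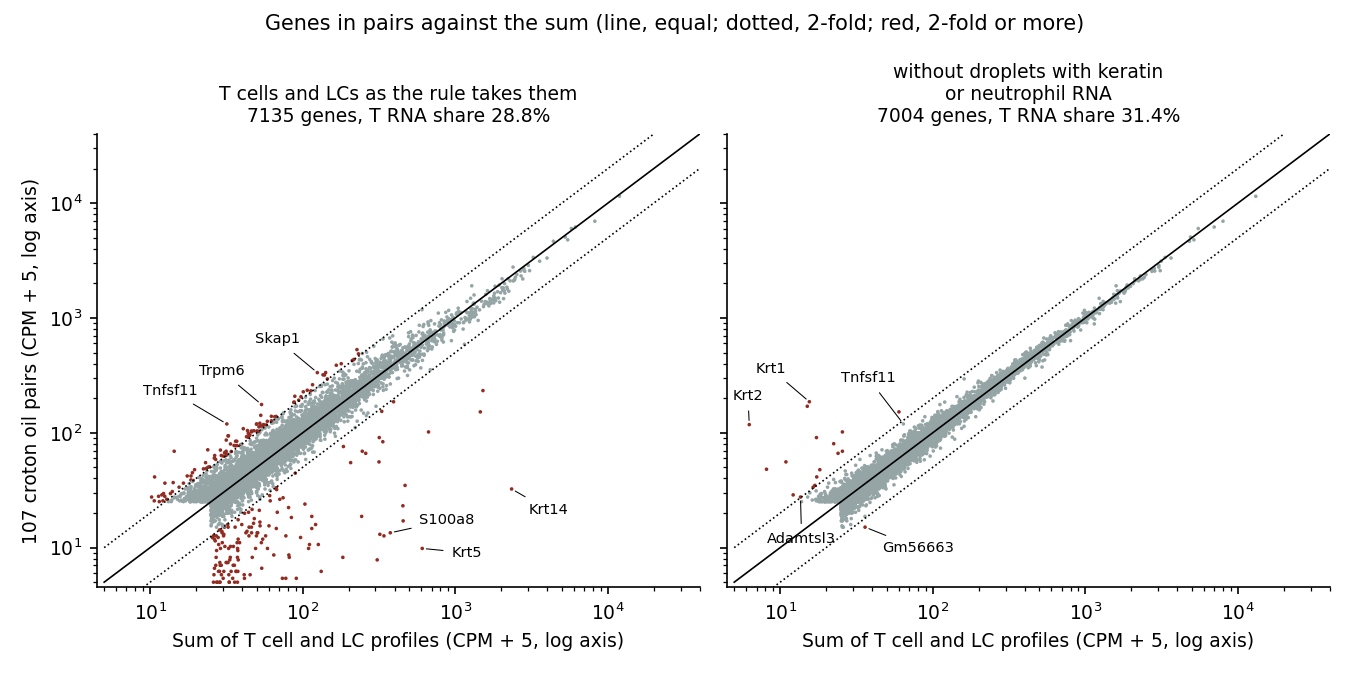
Level of each gene compared in the 107 croton oil pairs (vertical axis, CPM + 5) against the sum of T cell and LC profiles (horizontal axis, CPM + 5), both log axes, with the rule's comparison cells on the left and without cells holding keratin or neutrophil RNA on the right. The solid line marks equal levels and dotted lines 2-fold; Krt14, Krt5 and S100a8, below the line on the left, are used by the restriction on the right, where the red points above, Krt1 and Krt2 among them, are mostly genes of 1 droplet.

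Defining markers of most other cell types were scarce in the pairs. All 6 mast cell and basophil markers were at 0 in both libraries, and the monocyte and macrophage list summed to 1.21 CPM in croton oil pairs and 2.42 in LCs. The list for conventional dendritic cells summed to 302 CPM in pairs, 50.2 in T cells and 385 in LCs, from Sirpa, Irf4, Zbtb46 and Flt3, while Xcr1 and Clec9a were at 0 in pairs. The B and plasma cell list summed to 34.3, 88.4 and 8.17 CPM, mostly from Ighm, with Ms4a1 at 0 in pairs. The neutrophil list summed to 42.3 CPM in pairs, 27.3 in T cells and 66.3 in LCs. The NK and innate lymphoid list summed to 67.3, 143 and 61.6 CPM, nearly all from Rora, and its defining marker Ncr1 was at 0 in pairs and T cells. The keratinocyte list summed to 498 CPM in pairs, 236 in T cells and 70.6 in LCs, and 1 pair held 82.4% of its UMIs. T cells and LCs in these sums were the restricted ones, so their neutrophil and keratinocyte levels were limited by that choice.

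Per droplet in which the partner was alone, pairs with T cells were more numerous than pairs with neutrophils in both treated libraries at the MHC limit of 2%. For this count a pair needed an MHC share of at least 2% and a partner gene sum of at least a fraction of 0.25 of its median in partner-alone droplets. Partner-alone droplets had an MHC share under 1%. Neutrophils and keratinocytes alone also needed 1% or more of their UMIs from partner genes, but T cells only a T sum of 5, so the counts were not made alike. The 139 croton oil T cells include the 12 over the keratin or neutrophil limit. In the croton oil library there were 101 pairs for 139 T cells alone, or 72.7 per 100 (exact 95% interval 55.7 to 94.6). Neutrophils gave 52 pairs for 215 alone, or 24.2 per 100 (17.5 to 32.9). In the microneedle library the values were 13 for 16 T cells (81.2 per 100, 36.0 to 180) and 58 for 407 neutrophils (14.3, 10.6 to 18.8). The intervals of T cells and neutrophils did not overlap in either library. At an MHC limit of 5% they did: T cells gave 5.76 per 100 (2.44 to 11.7) and neutrophils 2.79 (1.01 to 6.17) in the croton oil library. In the microneedle library T cells gave 0 (0 to 25.9) and neutrophils 1.47 (0.538 to 3.24), too few T cell pairs to give an order. That limit is near the median MHC share of LCs alone (5.05% in the croton oil and 4.59% in the microneedle library), and RNA of any partner lowers the share. Keratinocytes gave 10 pairs for 172 alone (5.81 per 100, 2.74 to 11.0) and 2 for 44 (4.55, 0.534 to 17.4). A keratinocyte alone had a median of 50337 UMIs in the croton oil library, which dilutes the MHC share of an LC towards or under the limit, so its ratio was not compared with the others. They compare droplets of 1 library each, after enrichment for LCs, and the part of the enrichment, of cell size and of depth (median 6563 UMIs in T cells and 3231 in neutrophils alone in the croton oil library) in these ratios was not tested.

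**Figure D5:**
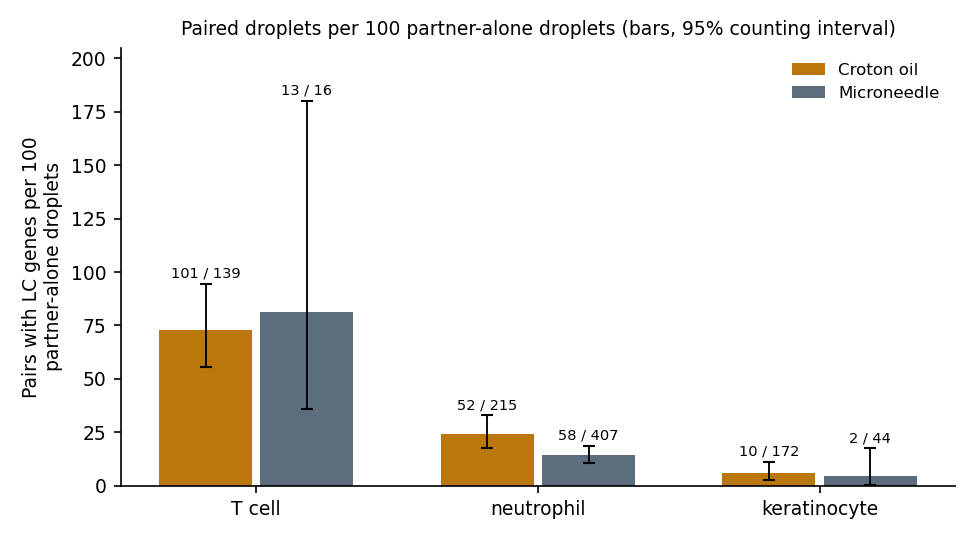
Droplets holding LC and partner genes per 100 droplets of the partner alone (vertical axis, from 0) for T cells, neutrophils and keratinocytes in the croton oil and microneedle libraries. Error bars are exact 95% intervals for counting error, the numbers are pairs and partner-alone droplets, and T cells (72.7 and 81.2 per 100) stand above neutrophils; keratinocyte values are limited by the MHC share that a pair needed.

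LC genes of the 14 microneedle pairs differed from the croton oil pairs partly, but not always, in the direction in which LCs of the libraries did. Cd207 had 355 CPM in pairs and 464 in LCs, both above the croton oil levels. C1qa, at 214 CPM in pairs and 486 in LCs, and Mgl2, at 26.4 and 15.3 CPM, were below them in both classes. Mfge8, at 1071 and 1208 CPM, was below them as well, though its thinned share was higher in microneedle than in croton oil pairs (85.7 against 79.6%) and lower in LCs (80.0 against 84.8%). Adgre1, the macrophage and LC receptor F4/80, was lower in microneedle than in croton oil pairs (96.0 against 123 CPM) but higher in LCs (201 against 165). Timd4 was far lower in microneedle than in croton oil LCs (36.1 against 180 CPM) and had 62.4 and 83.0 CPM in the pairs, where 1 microneedle droplet held 84.6% of its UMIs. None of these differences was tested. Trdc had 708 CPM in pairs and 2249 in T cells, and Trdv4 156 and 528. With 14 pairs and 12 T cells, no count of genes beyond a sum was made there.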

How the data were processed

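The deposited values were raw UMI counts per gene and barcode, made by the authors in Cell Ranger (version 8.0.0 per the file headers, 8.0 with GRCm39 per the submitters' processing notes). They come from 3' libraries, and the smallest barcode total was 500 UMIs. Coordinates of named genes come from GENCODE M39 on GRCm39.

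The pairs, gene lists and rule were chosen with earlier results of these data known. Droplets were chosen as the report states. No doublet caller was run, since the pairs are droplets of 2 cells by their rule. UMIs were summed per class and given as CPM. The sum was a mixture of T cell and LC profiles, its share set by the least absolute log2 difference with 5 CPM added. Genes were compared at 20 CPM or more in pairs or sum, leaving out the 10 rule genes. The text names the rule genes, the 12 genes furthest above and the 8 furthest below the sum, those above both cell types, and genes of 18 lists of T cell, LC and signalling genes. Genes named outside this rule, the T state genes thinned to a T sum of 20 and the keratin and neutrophil limits were chosen after values were seen. Of the T cell markers chosen, 1 is not reported here. Intervals are exact (Clopper-Pearson or Poisson) at 95%. Thinning was 1 random draw, and shares over all draws were added after seeing the data. Python 3.11.15, numpy 2.4.6, scipy 1.17.1 and pandas 2.3.3 were used.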

Additional observations from a re-analysis of the deposited data

Results flagged for a closer look

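Droplets with a T sum of 5 or more and 0.1% or more of their UMIs from Krt5, Krt14 and Krt15 lay outside the comparisons of pairs with the sum of restricted comparison cells. There were 14 in the croton oil library and 3 in the microneedle library, against 0 of 9827 in the untreated one, where a count of 0, taken as at most 3 counts, allows up to 0.0305%. The croton oil droplets had a median of 84542 UMIs, a median T sum of 7.5 and a median keratin share of 1.93%, and 11 of the 14 had an MHC share under 1%. They held 57 Trdc UMIs and 0 Trac UMIs. The microneedle droplets had a median of 83672 UMIs and a T sum of 8, with 0 Trdc and 0 Trac UMIs. Their T sums were far below the median of 55 in pairs, and the part of depth in these counts was not tested.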

How the results depend on the processing

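Each group has 1 library, so nothing could be left out as a replicate. No paired analysis was possible because each group has 1 library. Alternatives that also left out comparison cells with keratin or neutrophil RNA, and those alone, were chosen after seeing the data. An MHC minimum of 5% left 8 croton oil pairs and 1 microneedle pair, a T cell RNA share of 16.0%, 0 genes above (by construction, since 10 pairs were needed) and 648 below the sum, and a gamma-delta share of 100%. Pairs per 100 were then 5.76 for T cells, 2.79 for neutrophils and 0 for keratinocytes in the croton oil library and 0, 1.47 and 0 in the microneedle one. The T cell RNA share, 28.8%, became 28.6% (1 CPM added), 29.7% (50 CPM minimum), 33.5% (T sum 10 or more), 34.6% (without the deepest 5% of comparison cells), 27.9% (without mitochondrial and ribosomal genes), 33.4% (mean of droplets), and 63.1%, 37.2% and 49.5% from the T cell list, the LC list and depth. Without partner RNA it was 31.4%, and with it 31.3% (1 CPM), 32.2% (50 CPM), 32.5% (T cell list), 37.4% (LC list), 34.5% (depth) and 32.0% (mean of droplets). The 89 genes above the sum became 135 (1 CPM), 59 (50 CPM), 3 (T sum 10 or more), 3 (without the deepest), 8 (mean of droplets), 24 and 20 (T cell and LC list), 4 (depth) and 1 (added UMIs). Without partner RNA they were 1, then 1, 0, 0, 0, 2 and 7 (1 CPM, 50 CPM, T cell list, LC list, added UMIs, mean of droplets). The 144 below became 57 (50 CPM), 92 (T sum 10 or more), 68 (without the deepest), 24 (mean of droplets), 415 (T cell list), 284 (depth) and 445 (added UMIs). Without partner RNA they were 1, then 3, 0, 1, 1, 1 and 3 in the order given for the genes above without partner RNA. Genes above both cell types, 0, became 1 (1 CPM), 2 (mean of droplets) and 3 (mean of droplets without partner RNA). The other 36 values stayed within 1.5 times the reported count or within its counting interval. The intervals are wide for small counts: microneedle keratinocyte pairs went from 4.55 to 11.4 and 2.27 per 100 with a lower and a higher limit on partner UMIs. Genes below the sum became 196 with the share from the LC list. Depth limits low genes: Adamtsl3 rested on 25 UMIs in T cells.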
